A study of Mus musculus with 6 samples.

Results

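Somite A and Somite B, a pair of the clusters that the study named in its single-cell RNA-seq of mouse stembryos, were set against each other inside the same libraries at 120 h after aggregation. Members were taken by the cluster name that the deposited annotation gives each cell, in the libraries of whole stembryos (replicates 1 and 2) and of the dissected anterior part. They numbered 3698 Somite A and 2401 Somite B cells, which is 6099 of the 11494 cells of these 3 libraries and of the 26968 cells of all 6 libraries. The study compared whole stembryos at 96 h and at 120 h, and the anterior and posterior parts at 120 h. Stembryos are aggregates of mouse embryonic stem (mES) cells that elongate after a pulse of the Wnt agonist Chiron. All libraries came from wild-type cells (annotated 129sv.WT) grown without any further treatment, each library was made from a pool of stembryos, and aggregates that failed to elongate by 120 h had been set aside. As pools of aggregates from 1 cell line, the libraries carry no variation between animals, and p-values measure the spread between these 3 libraries only.

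Somites are blocks of paraxial mesoderm that form in pairs along the trunk, from presomitic mesoderm that passes a determination front. A new somite is an epithelial ball patterned into anterior and posterior compartments, and later its ventral part becomes sclerotome, the source of vertebrae and ribs, while its dorsal part becomes dermomyotome, the source of dermis and skeletal muscle. Hox genes, which lie in 4 clusters and are activated one after the other from one end, give somites of different body levels different identities.

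Both clusters carried the defining genes of somites. Tcf15, a transcription factor of epithelial somites, was detected in 96.2, 96.4 and 96.8% of Somite A cells and in 96.5, 96.4 and 94.3% of Somite B cells of whole replicate 1, whole replicate 2 and the anterior part, after every cell had been thinned to 5000 UMIs (unique molecular identifiers, the counted molecules). The cluster named Spinal cord A, which should lack the gene, gave 19.1 and 11.3% in the whole libraries. Unthinned, the Tcf15 shares ran from 95.3 to 99.9% in the somite clusters and were 31.5 and 18.3% in Spinal cord A. The 21 cells of Spinal cord A in the anterior library carried Tcf15 in 95.2% of cells after thinning, against their label, and were not used as a background. Shares of cells are counting results of single libraries.

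Somite B cells came mostly from the anterior part. It made up 517 of the 1691 somite cells of whole replicate 1, or 30.6% (exact 95% binomial interval 28.4 to 32.8%). In whole replicate 2 the share was 127 of 770 cells, or 16.5% (13.9 to 19.3%). The anterior part held 1757 Somite B cells among 3638 somite cells, 48.3% (46.7 to 49.9%). Its posterior counterpart held 68 Somite A cells and 1 Somite B cell, 1.45% (0.0367 to 7.81%). At 96 h, 3 cells in all carried either name, 1 of them Somite B. The intervals cover counting error only, and 1 library of each dissected part allows no test between parts. The 2 whole libraries differed by more than counting error, and they also differ in batch (1 and 4 in the annotation) and chip version (V3 and V3.1), so these cannot be told apart.

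**Figure D1:**
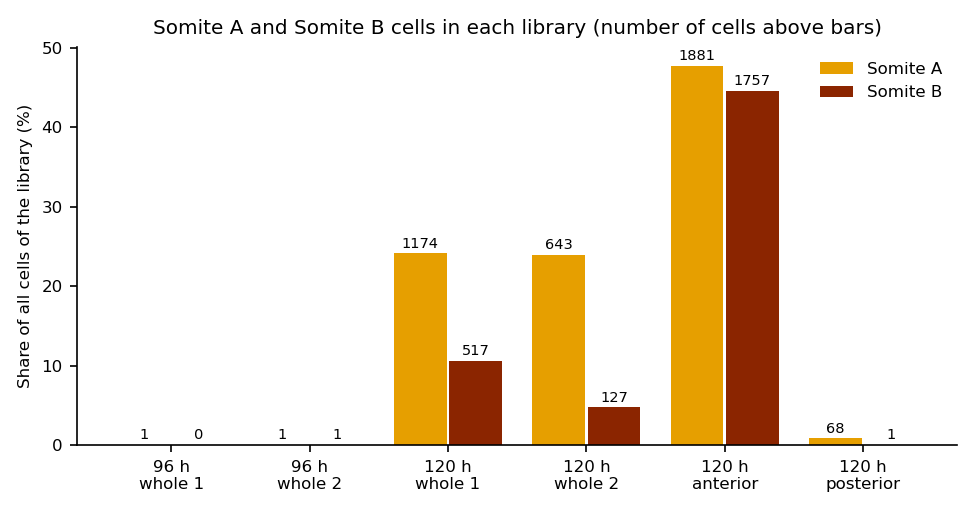
Share of all cells of each library (%, y axis) that carried the name Somite A (orange) or Somite B (dark red), with the number of cells above each bar. The bars for Somite B are tallest in the anterior library and at or near 0 in the posterior library and at 96 h.

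The depth behind the comparison was uneven. Summed over cells, Somite A gave 18875431, 5787349 and 26068837 UMIs in whole replicate 1, whole replicate 2 and the anterior part, and Somite B gave 8590854, 1203239 and 23137117. Cells of both clusters were of similar quality: median UMIs per cell were 15498, 8601 and 13210 in Somite A and 16202, 8435 and 11996 in Somite B, and median mitochondrial shares were 2.19 to 2.58% and 2.25 to 2.54%. Somite B held more cells in phase G2M by the deposited calls (48.5, 47.2 and 48.3%, against 42.9, 44.8 and 42.9%) and fewer in G1 (20.9, 18.1 and 23.3%, against 26.4, 18.8 and 26.6%). Each of these phase differences had the same sign in 3 of 3 libraries, with p = 0.25 in the exact two-sided paired permutation test, the smallest p that 3 libraries allow. Their part in the gene differences below was not tested. One of 6098 cell barcodes was shared between the 3 libraries among somite cells.

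Counts were summed per library and cluster and compared with edgeR's quasi-likelihood test with the library as a block. Levels are in CPM, UMI counts relative to the total UMIs of each sum with TMM scaling, and differences are log2 of Somite B over Somite A with the standard error of the fit. The authors drew the clusters from the expression of these very cells, so that genes had to differ between them. Passing the test (Benjamini-Hochberg adjusted p under 0.05) therefore says only that a difference was large against the spread over the 3 libraries. The fit took that spread partly from the gene and partly from other genes. Nothing is read from the number that passed. Of 13811 genes tested, 507 were higher and 569 lower in Somite B, that is 7.79% in either direction, 3.67% higher and 4.12% lower, against which the lists below should be read. Of the genes called, 1034 (96.1%) had the same sign in all 3 libraries, and 167 of those higher and 99 of those lower exceeded a log2 difference of 1 in size. Passing the test favours genes that agree between libraries, so the same-sign share is no separate support. Of the called genes named below, Rarb, Nr2f1, Prrx1, Snai2, Hoxa6, Hoxd9, Phlda2 and H19 had the opposite sign in whole replicate 2. Without normalization factors the split was 759 higher and 320 lower.

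Dermomyotome genes were higher in Somite B, and the first marks of muscle were few. Of 18 listed genes of dermomyotome and myotome, 11 were abundant enough to be tested, 6 of these were higher, 1 was lower and 4 did not pass; the median log2 difference was 0.36, against -0.00046 over all genes tested. Leaving out each library in turn kept 5 to 6 of them higher.

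Dmrt2, a transcription factor of the dermomyotome that acts upstream of Myf5, stood at 35.0, 47.3 and 51.9 CPM in Somite A and at 162, 110 and 102 CPM in Somite B of whole replicate 1, whole replicate 2 and the anterior part, the order of libraries kept in all that follows. Every Somite B value was above every Somite A value, and the log2 difference was 1.49 ± 0.17 (adjusted p = 7.63e-05). Next to Dmrt2 and transcribed away from it (chromosome 19, 25671134 to 25672253 on the minus strand, against 25672411 to 25678991 on the plus strand for Dmrt2, in mm10 with GENCODE M21 models), the noncoding 2610016A17Rik followed with 37.7, 34.5 and 54.0 CPM in Somite A and 132, 75.4 and 90.3 CPM in Somite B (log2 1.22 ± 0.15, adjusted p = 0.000133).

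Pax7, a paired-box factor that marks muscle progenitors of the central dermomyotome, was at 2.53, 2.996 and 2.95 CPM in Somite A and at 18.1, 21.7 and 22.4 CPM in Somite B. Both sets of values were tight and far apart, with a log2 difference of 2.88 ± 0.13 (adjusted p = 2e-08). Its paralog Pax3, which covers the whole dermomyotome and is already on in the presomitic mesoderm, moved less: 188, 152 and 170 CPM in Somite A and 301, 180 and 184 CPM in Somite B. Here the groups overlapped, the log2 difference was 0.36 ± 0.09 (adjusted p = 0.02), and it no longer passed without whole replicate 1 (0.14) or without whole replicate 2 (0.39).

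Low but repeated were the other members of this group. En1, a homeobox gene of the central dermomyotome, was at 0.224, 0.166 and 0.164 CPM in Somite A and at 2.03, 2.24 and 2.65 CPM in Somite B (log2 3.60 ± 0.41, adjusted p = 7.43e-05). Sim1, which marks its lateral lip, was at 16.0, 20.5 and 17.1 CPM against 29.4, 32.1 and 26.3 CPM (log2 0.72 ± 0.09, adjusted p = 0.00021). Myf5, the earliest of the myogenic regulators, stayed below 5 CPM in both clusters: 0.954, 1.17 and 0.328 CPM in Somite A and 4.07, 2.99 and 1.08 CPM in Somite B (log2 1.85 ± 0.33, adjusted p = 0.00295). Des, which encodes the muscle intermediate filament desmin, was in contrast lower in Somite B, at 2.87, 2.24 and 1.69 CPM against 4.99, 6.66 and 5.41 CPM (log2 -1.34 ± 0.24, adjusted p = 0.00272), a call that did not hold without the anterior library. Some of these levels rest on few molecules: En1 had 4, 1 and 4 UMIs in Somite A and 17, 3 and 61 in Somite B. In Somite B of whole replicate 2, Myf5 had 4 UMIs and Des had 3. Eya1, Met and Actc1 were among those that did not pass, with log2 differences of -0.30, -0.67 and 0.12. Myod1, Myf6, Lbx1, Msc, Alx4 and Wnt11 were below the filter on low counts.

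The share of cells with a UMI was compared as well for Dmrt2 and Pax7, although it follows the level and does not tell more expressing cells from more transcript per cell. After thinning to 5000 UMIs, Dmrt2 was detected in 13.5, 20.3 and 19.2% of Somite A cells and in 46.6, 40.2 and 35.8% of Somite B cells (unthinned 31.3, 31.9 and 41.2%, and 79.5, 55.9 and 58.9%). In Spinal cord A of the whole libraries it was found in 2.49 and 0.806% of cells, at median depths that thinning made equal. Pax7 was found in 1.19, 1.91 and 1.60% of Somite A cells and in 8.32, 10.7 and 10.6% of Somite B cells, with 2.07 and 0.806% in Spinal cord A (unthinned 3.41, 2.80 and 3.46%, and 22.4, 20.5 and 23.3%). Thinning left out 67 Somite A, 15 Somite B, 63 Spinal cord A and 12 determination front cells of whole replicate 2, and at most 8 cells of any other group. The Somite A share of Pax7 in whole replicate 1 was not above that of Spinal cord A. Whether Spinal cord A lacks Pax7 was not tested, so its share is no background of cells without the gene. In the determination front the thinned Pax7 shares were 0.488, 0.513 and 0%, each below the Somite A share of its library. Most Somite B cells held no Pax7 UMI at this depth.

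Several other transcription factors of somites shifted, in both directions. Of 16 listed, 15 were tested, 4 were higher (Dmrt2, Meox2, Cxcl12, which encodes a chemokine, and Pax3) and 6 lower (Foxc2, Foxc1, Foxd1, Meox1, Ebf2 and Tcf15). Meox2, a homeobox factor of somites and later of muscle, was at 39.2, 26.8 and 34.4 CPM in Somite A and at 95.8, 68.0 and 79.8 CPM in Somite B. Its log2 difference was 1.26 ± 0.07 (adjusted p = 9.26e-08), and the groups did not overlap. Meox1, its paralog, went the other way, from 543, 488 and 732 CPM to 411, 425 and 489 CPM (log2 -0.42 ± 0.06, adjusted p = 0.000644). Foxc2, a forkhead factor of presomitic and sclerotomal mesoderm, was at 133, 149 and 145 CPM in Somite A and at 60.8, 87.4 and 77.2 CPM in Somite B (log2 -0.96 ± 0.07, adjusted p = 1.22e-06). Foxc1 (-0.37), Foxd1 (-0.53), Ebf2 (-0.60) and Tcf15 (-0.23) passed by less. Each of these 4 lost its call when whole replicate 2 was left out, Tcf15 also without the anterior library, and Foxd1 and Ebf2 also without whole replicate 1. Cxcl12 stood at 264, 275 and 334 CPM in Somite A and at 318, 623 and 547 CPM in Somite B (log2 0.69 ± 0.11, adjusted p = 0.00115).

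Ventral and polarity genes were less uniform. Pax1, the paired-box factor of sclerotome, was at 38.2, 22.6 and 40.7 CPM in Somite A and at 21.9, 61.2 and 93.9 CPM in Somite B. It was thus lower in Somite B in whole replicate 1 and higher in the other 2 libraries, and the fit gave 0.58 ± 0.28 (adjusted p = 0.267). Pax9 (0.23), Sox9 (-0.49), Twist1 (0.09) and Col2a1 (0.26) did not pass either, and Nkx3-2 was below the filter. Of the 8 sclerotome genes tested, Foxc2 was lower and Zic1 was higher. Without whole replicate 1, 4 of the list were higher, and without the anterior library 3 were lower, with the median of the list turning from 0.16 to -0.24. Zic1 was at its highest in whole replicate 1: it was at 26.0 CPM in Somite B there but at 5.23 and 0.477 CPM in the others, against 3.54, 0.999 and 0.123 CPM in Somite A (log2 2.76 ± 0.24, adjusted p = 6.8e-06). In that library 9.86% of thinned Somite B cells held a Zic1 UMI (20.5% unthinned), against 7.47% of Spinal cord A cells (14.9% unthinned), the dorsal part of which is known to use the gene.

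Within Somite B, cells with and without Pax1 could be set side by side. Dmrt2 was detected in 16 of 45 cells with a Pax1 UMI (35.6%) and in 47.7% of the other 472 cells in whole replicate 1. The corresponding shares were 6 of 19 (31.6%) and 41.9% in whole replicate 2, and 110 of 482 (22.8%) and 40.7% in the anterior part. Within Somite A the shares were 15.5 and 13.2%, 23.4 and 20.04%, and 18.99 and 19.3%. Cells of 1 library are not replicates and no test was made. With Pax7 in place of Dmrt2 the shares in Somite B were 4.44 and 8.69%, 5.26 and 11.8%, and 8.51 and 11.4%.

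Of 6 polarity genes, 1 passed. Epha4, an ephrin receptor that acts at somite boundaries, was at 36.2, 29.5 and 23.0 CPM in Somite A and at 48.9, 64.2 and 40.5 CPM in Somite B (log2 0.72 ± 0.10, adjusted p = 0.000421). Uncx, which marks the posterior compartment, was at 263, 199 and 137 CPM in Somite A and at 328, 224 and 82.6 CPM in Somite B (log2 -0.11 ± 0.14, adjusted p = 0.752). Tbx18, which marks the anterior compartment, was low throughout, at 7.63, 5.49 and 3.81 CPM in Somite A and at 1.56, 0 and 4.08 CPM in Somite B, where the 0 allows up to 2.24 CPM at the depth of that sum (log2 -0.84 ± 0.38, adjusted p = 0.238). Mesp2 (-1.20), Efnb2 (-0.07) and Dll1 (-0.25) did not pass.

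The 15 largest increases with the same sign in all 3 libraries and at least 50 CPM in Somite B also held genes that encode no transcription factor. Timp3, which encodes an inhibitor of matrix metalloproteinases, was at 12.0, 16.5 and 16.9 CPM in Somite A and at 63.6, 75.4 and 68.5 CPM in Somite B (log2 2.19 ± 0.09, adjusted p = 8.65e-09). Fap, a surface protease of mesenchyme, rose from 14.3, 15.1 and 20.4 CPM to 47.0, 57.5 and 76.3 CPM (log2 1.84 ± 0.08, adjusted p = 1.33e-08). Ntm, a cell adhesion molecule of the immunoglobulin family, rose from 23.1, 13.8 and 15.6 CPM to 66.3, 40.3 and 59.4 CPM (log2 1.71 ± 0.09, adjusted p = 9.26e-08). For each of these 3 genes all Somite B values lay above all Somite A values, which choosing the largest differences favours. Igfbp5, which binds insulin-like growth factors, was the most abundant of this set, at 479, 759 and 606 CPM against 1006, 1542 and 1174 CPM (log2 1.02 ± 0.05, adjusted p = 1.56e-08). Rps6ka3 (1.33), Sema3a (1.32), Atl1 (1.30), Cnn2 (1.28), Itga9 (1.01), Crabp2 (0.87) and Cttnbp2 (0.86) completed the 15 largest increases, together with Id3. None of the 15 lost its call when any 1 library was left out.

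**Figure D2:**
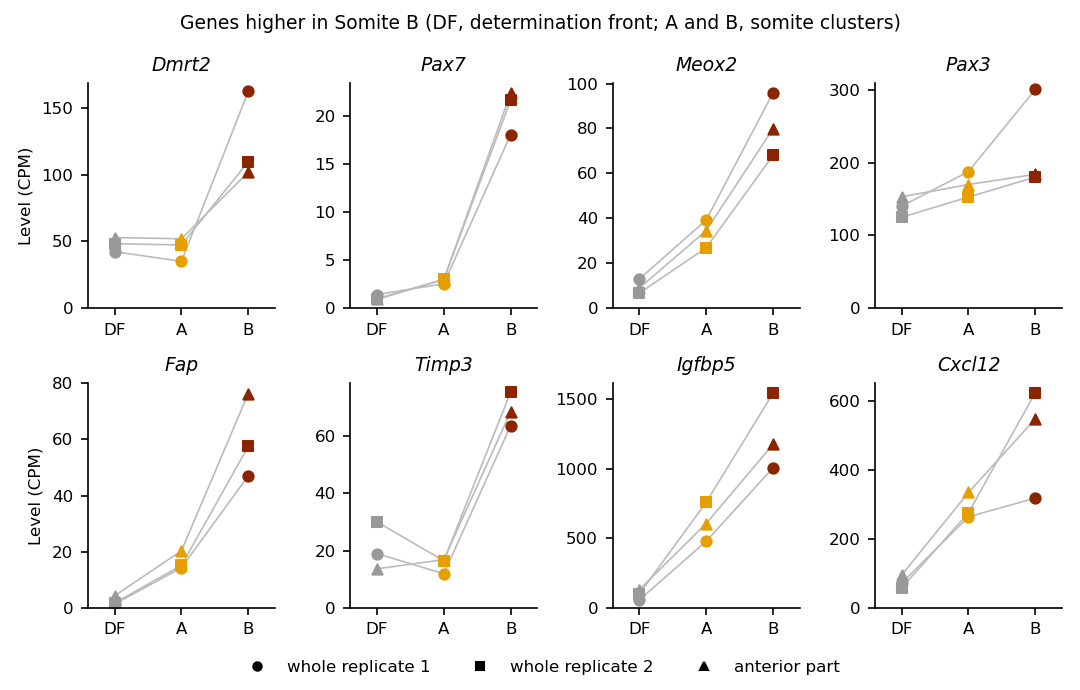
Level (CPM, y axis) of 8 genes that were higher in Somite B, in the determination front cluster (DF, grey), Somite A (orange) and Somite B (dark red); a line joins the sums of 1 library, and the marker gives the library. In each panel the Somite B point of a library lies above its Somite A point; for Pax3 and Cxcl12 the size of that step differs between libraries.

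The determination front cluster of the same libraries, 1090 cells, gives these levels a context, and was not tested here because it shares the Somite A sums. Its levels, here and in the figures, were scaled by TMM together with the somite sums. Somite levels were scaled among the somite sums alone, so small differences between the clusters are not read. Fap stood at 1.39, 1.77 and 4.32 CPM there, Igfbp5 at 57.5, 101 and 131 CPM and Meox2 at 12.9, 6.63 and 8.88 CPM, each below Somite A. Dmrt2 was at 42.2, 48.2 and 52.8 CPM, close to its Somite A values, and Timp3 at 18.97, 30.1 and 13.7 CPM.

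Matrix, guidance and growth genes were more often higher than lower. Of 23 matrix genes tested, 7 were higher and 2 lower, with a median log2 difference of 0.26. Col4a1, a chain of the basement membrane collagen, was at 101, 111 and 109 CPM in Somite A and at 182, 189 and 173 CPM in Somite B (log2 0.76 ± 0.06, adjusted p = 2.14e-06). Col1a2, a chain of fibrillar collagen, was at 5.72, 8.16 and 5.99 CPM against 15.9, 14.2 and 17.0 CPM (log2 1.40 ± 0.14, adjusted p = 1.74e-05). Tnc, which encodes tenascin C, was called too (log2 2.28), as was Sparc (1.72), whereas Vcan (-0.43) and Fbn2 (-0.25) were lower. Vcan and Fbn2 lost their calls without whole replicate 2, Fbn2 also without whole replicate 1, and Sparc without the anterior library.

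Of 23 guidance genes tested, 8 were higher and 2 lower, a median of 0.14. Sema3a, a secreted repellent of axons and neural crest, was at 18.97, 23.1 and 23.7 CPM in Somite A and at 56.2, 68.7 and 48.1 CPM in Somite B (adjusted p = 3.47e-06). Epha3 (1.79), Sema3d (1.72) and Slit2 (0.95) were also higher, from levels below 10 CPM in Somite A. Nrp1, a receptor for class 3 semaphorins, was lower, at 5.86, 23.1 and 22.9 CPM against 30.7, 26.3 and 32.8 CPM (log2 -0.98 ± 0.24, adjusted p = 0.022), largely in whole replicate 1, and lost its call without whole replicate 2. Sema6a was lower as well (-0.65).

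Among 21 growth factor and imprinted genes, all tested, 12 were higher and 3 lower, a median of 0.34. Leaving out the anterior library left 8 higher, and leaving out whole replicate 2 left 6. Peg10, an imprinted gene with paternal expression, was at 32.5, 21.0 and 7.01 CPM in Somite A and at 57.4, 30.6 and 15.3 CPM in Somite B (log2 0.89 ± 0.10, adjusted p = 7.49e-05), with larger differences between libraries than between clusters. Plagl1 (0.98) was higher. Cdkn1c, an imprinted inhibitor of the cell cycle, was lower (-0.44 ± 0.07, adjusted p = 0.000857), as were Phlda2 (-1.92) and H19 (-0.33), both of which lost their calls without the anterior library, and Phlda2 also without whole replicate 1.

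Hox genes of the middle of the clusters were lower in Somite B, while those of the start were mostly not. Of 15 tested genes of paralog groups 5 to 9, 9 were lower and none was higher, with a median log2 difference of -1.07. Of 12 genes of groups 1 to 4, 2 were higher (Hoxa2 and Hoxb4) and 2 lower (Hoxb1 among them), with a median of 0.09. Only Hoxa10 and Hoxc10 of groups 10 to 13 could be tested, and neither passed.

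Hoxb9 (chromosome 11, 96271457 to 96276595, plus strand) was at 182, 108 and 67.4 CPM in Somite A and at 78.2, 41.8 and 5.99 CPM in Somite B. The level was lower in Somite B in each library, most in the anterior part. In the determination front of these libraries it was at 187, 164 and 164 CPM. The Somite A levels differed between libraries, and the whole replicate 1 value of Somite B lay above the anterior value of Somite A. The log2 difference was -2.0015 ± 0.29 (adjusted p = 0.000538). Hoxa7 (chromosome 6, 52214491 to 52221854, minus strand) went from 171, 104 and 91.3 CPM to 76.4, 47.0 and 8.20 CPM, a log2 difference of -1.997 ± 0.31 (adjusted p = 0.000993).

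Hoxc8 and Hoxc9 differed between libraries as well. Hoxc8 (chromosome 15, 102990607 to 102994111) was at 67.7, 23.8 and 2.34 CPM in Somite A and at 11.5, 19.4 and 0 CPM in Somite B, where no UMI in the anterior sum allows up to 0.13 CPM (log2 -2.31 ± 0.33, adjusted p = 0.000533). Hoxc9, its neighbour at 102976439 to 102985099, was at 36.3, 17.0 and 0.861 CPM against 5.98, 11.2 and 0.0867 CPM (log2 -2.27 ± 0.27, adjusted p = 0.000106). Hoxa6 (-2.37), Hoxa9 (-1.62), Hoxc6 (-1.24), Hoxd9 (-1.07) and Hoxd8 (-0.64) were lower too. Of these, Hoxa9 and Hoxd9 lost their calls without whole replicate 1, and Hoxc6, Hoxd8 and Hoxd9 without whole replicate 2, and Hoxd8 also without the anterior library.

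The middle of the HoxB cluster divided the libraries. Hoxb8 was at 117, 95.6 and 73.6 CPM in Somite A and at 135, 88.9 and 28.3 CPM in Somite B, so that it was lower by a wide margin in the anterior part alone (log2 -0.46 ± 0.21, adjusted p = 0.244). Hoxb7 gave 62.7, 46.6 and 49.5 CPM against 75.7, 42.6 and 16.3 CPM, and Hoxb6 gave 28.1, 26.5 and 10.1 CPM against 28.9, 26.1 and 3.90 CPM. Neither passed. Hoxb5 (0.19), Hoxa5 (-0.23) and Hoxc5 (-0.12) were the others of these groups that did not pass. Hoxb5os, which lies antisense across Hoxb5 and Hoxb6, was lower (log2 -1.54 ± 0.21, adjusted p = 0.000288).

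At the start of the clusters, Hoxb1 was lower, from 22.9, 22.5 and 11.9 CPM to 13.3, 4.48 and 3.17 CPM (log2 -1.38 ± 0.20, adjusted p = 0.000482). Hoxb4 was higher, at 68.2, 97.1 and 91.7 CPM against 59.9, 75.9 and 66.0 CPM (log2 0.35 ± 0.07, adjusted p = 0.00735), as was Hoxa2 (0.36 ± 0.09, adjusted p = 0.0287). Both of the latter lost their calls without whole replicate 2 and without the anterior library. The number of genes of groups 5 to 9 called lower was 6 to 12 when 1 library was left out, 8 in cells of phase G1 alone, and 1 (Hoxa9) with DESeq2. Gene models overlap inside the Hox clusters (Hoxa3, Hoxc5, Hoxc4 and Hoxd3 among them), and how reads were divided between them is not given in the sources used here.

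**Figure D3:**
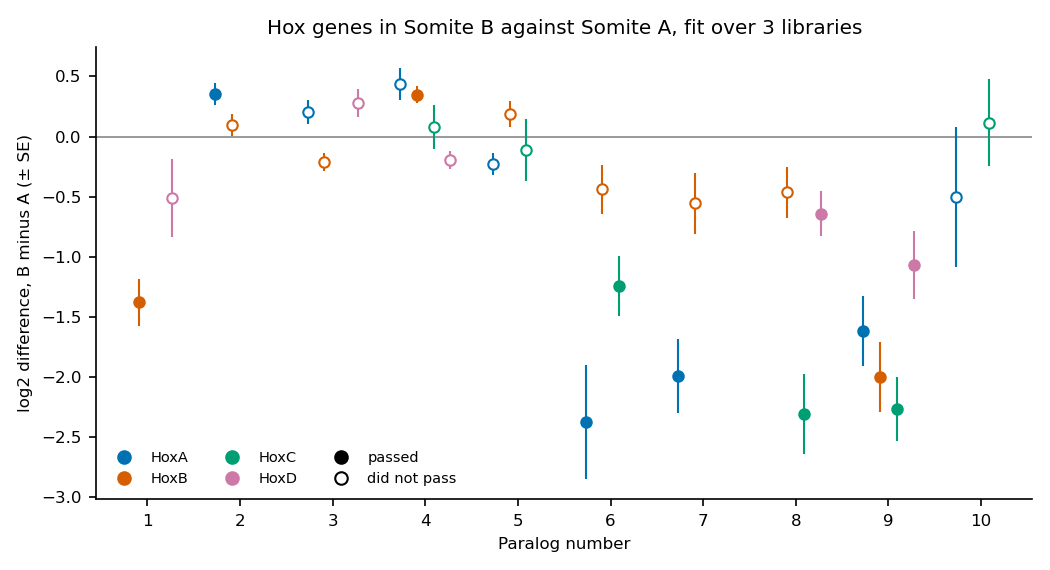
Log2 difference of Somite B against Somite A from the fit over 3 libraries (y axis, points with the standard error of the fit) for tested Hox genes, by paralog number (x axis) and cluster (colour); filled points passed the test. All filled points from group 6 on lie below 0, whereas points of groups 2 to 5 stay within 0.5 of 0.

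In cells, Hoxb9 was detected in 54.6, 35.2 and 20.9% of thinned Somite A cells and in 22.6, 12.5 and 2.06% of thinned Somite B cells (unthinned 83.8, 48.7 and 39.7%, and 53.2, 26.8 and 5.69%). In the determination front the shares were 52.8, 54.9 and 48.3%. Somite A cells of the posterior part, 68 cells in 1 library, gave 189 CPM of Hoxb9 and 188 CPM of Hoxa7, here without TMM scaling. These values were above the anterior Somite A levels of 67.4 and 91.3 CPM and near those of whole replicate 1, 182 and 171 CPM. Within Somite B, Dmrt2 was found in 52 of 117 cells with a Hoxb9 UMI (44.4%) and in 47.3% of the other 400 cells of whole replicate 1. In whole replicate 2 these were 4 of 14 cells (28.6%) and 41.8% of the other 98, and in the anterior part 14 of 36 cells (38.9%) and 35.7% of the other 1713. No test was made of these shares.

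Prrx2 and Ifitm1 were also among the 15 largest decreases, chosen in the same way. Prrx2, a paired-type homeobox gene of mesenchyme, was at 170, 172 and 192 CPM in Somite A and at 44.7, 56.8 and 58.6 CPM in Somite B (log2 -1.77 ± 0.07, adjusted p = 6.4e-09). Ifitm1, an interferon-induced membrane protein gene of early mesoderm, was at 304, 265 and 371 CPM against 91.9, 85.1 and 60.2 CPM (log2 -2.11 ± 0.14, adjusted p = 6.7e-07). In neither gene did the groups overlap, which choosing the largest differences favours. Both genes were higher still in the determination front, at 250 to 335 CPM for Prrx2 and 650 to 1114 CPM for Ifitm1. Gstm5 (-1.23), Foxd2os (-1.40), Ppp1r1a (-0.99) and Crabp1 (-0.92) were among the 15 largest decreases.

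**Figure D4:**
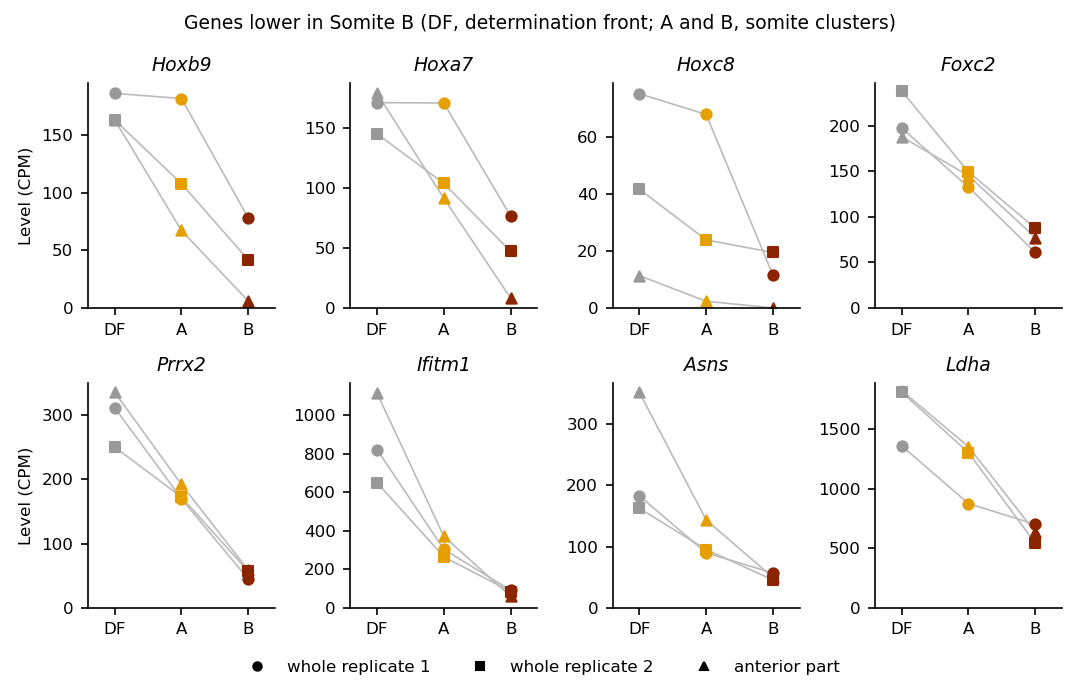
Level (CPM, y axis) of 8 genes that were lower in Somite B, in the determination front cluster (DF, grey), Somite A (orange) and Somite B (dark red); a line joins the sums of 1 library, and the marker gives the library. Prrx2 falls by a similar amount in the 3 libraries. The Somite A levels of Hoxb9, Hoxa7 and Hoxc8 differ between libraries, while the determination front levels of Hoxb9 and Hoxa7 lie closer together.

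Of 15 genes of presomitic mesoderm and segmentation tested, none was higher and 3 were lower, a median of -0.38. Rspo3, a secreted enhancer of Wnt signalling, was at 30.0, 35.0 and 19.1 CPM in Somite A and at 13.04, 16.4 and 10.8 CPM in Somite B (log2 -0.996 ± 0.11, adjusted p = 4.35e-05). Dll3 (-0.57), a Notch ligand of the segmentation clock, and Cer1 (-2.20), which was at 1.07 to 2.33 CPM in Somite A, were lower too, but Dll3 lost its call without the anterior library and Cer1 without whole replicate 2.

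Most tested members of the FGF, Wnt, Notch and hedgehog lists did not pass, and the medians of these lists ran from -0.21 to 0.08. Among the ligands and secreted inhibitors, Fgf18 was lower, from 22.3, 26.0 and 33.0 CPM to 5.14, 8.21 and 9.02 CPM (log2 -1.92 ± 0.11, adjusted p = 1.59e-07), and so were the Wnt inhibitors Frzb (-2.10) and Sfrp1 (-0.47), the latter not without whole replicate 2 or the anterior library. Bmp5, a BMP ligand, was higher, at 13.04, 11.9 and 5.55 CPM against 6.85, 4.83 and 3.65 CPM (log2 0.84 ± 0.17, adjusted p = 0.00609). Among receptors, Cdon, a surface coreceptor for hedgehog, was higher (log2 0.45 ± 0.07, adjusted p = 0.0015), and Ptch1, a target and receptor of the pathway, did not pass (0.05 ± 0.10). Of the Notch targets, Heyl was higher, from 14.9, 9.49 and 16.7 CPM to 22.5, 36.6 and 36.0 CPM (log2 1.03 ± 0.15, adjusted p = 0.000472), and Hey1 was lower, from 48.4, 33.5 and 37.2 CPM to 24.6, 26.9 and 16.0 CPM (log2 -1.02 ± 0.11, adjusted p = 4.87e-05).

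BMP genes were called in 1 direction only, 5 of 13 tested higher and none lower, with a median of 0.45. Id3, a target that encodes a dominant-negative helix-loop-helix protein, was at 54.4, 29.0 and 31.9 CPM in Somite A and at 150, 44.1 and 99.9 CPM in Somite B (log2 1.43 ± 0.11, adjusted p = 3e-06). Its relatives Id1 (0.86) and Id2 (0.83) were higher as well, Id2 mostly in whole replicate 1, with 86.5 against 34.5 CPM there. The fifth, the inhibitor Grem1, was below 1 CPM in every sum and lost its call without either whole library. FGF genes gave 2 higher (the feedback phosphatase genes Dusp4 and Dusp6) and 1 lower of 14, Wnt genes 1 higher (Nkd2) and 3 lower of 15, Notch genes 1 higher and 2 lower of 14, and hedgehog genes 1 higher of 7.

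The retinoic acid list was called in both directions, 5 of 13 higher and 3 lower. Crabp2, a cellular retinoic acid binding protein gene, was at 57.0, 70.1 and 38.1 CPM in Somite A and at 133, 86.6 and 66.1 CPM in Somite B (adjusted p = 0.000203), while Crabp1 went from 27.4, 111 and 98.9 CPM to 17.1, 47.0 and 51.7 CPM (adjusted p = 1.21e-05). Dhrs3, a retinaldehyde reductase gene induced by retinoic acid, was lower, at 12.8, 12.7 and 12.9 CPM against 34.3, 31.3 and 51.3 CPM (log2 -1.74 ± 0.12, adjusted p = 8.63e-07). Nr2f1 was higher (0.57), as were Stra6 (0.57) and Rarb (0.73), and Rarg was lower (-1.05); Stra6, Rarb and Rarg lost their calls without the anterior library, and Rarg also without whole replicate 2. Aldh1a2, which encodes the enzyme that makes retinoic acid in somites, did not pass (-0.08 ± 0.13).

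Genes of adhesion and mesenchyme were split, 5 of 19 higher and 4 lower, a median of 0.01. Itga6, an integrin subunit for laminin, was at 69.7, 66.6 and 86.4 CPM in Somite A and at 125, 132 and 108 CPM in Somite B (log2 0.65 ± 0.10, adjusted p = 0.000744). Twist2, a helix-loop-helix factor of mesenchyme, was at 18.2, 15.1 and 14.7 CPM against 4.90, 0.747 and 3.99 CPM (log2 -1.96 ± 0.16, adjusted p = 4.62e-06), and Pdgfra (-0.50) and Cdh11 (-0.38) were also lower. Snai2 (0.81), Prrx1 (0.98) and Zeb1 (0.29) were higher, and each lost its call without the anterior library, Prrx1 and Zeb1 also without whole replicate 2, and Prrx1 also without whole replicate 1.

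Glycolysis and p53 target genes were lower in part. Of 18 glycolytic and hypoxia genes none was higher and 8 were lower, a median of -0.35. Ldha, which encodes lactate dehydrogenase A, was at 877, 1305 and 1355 CPM in Somite A and at 703, 544 and 637 CPM in Somite B (log2 -0.87 ± 0.12, adjusted p = 0.000417). Aldoa (-0.70), Pgk1 (-0.52) and Slc2a1 (-0.45) were lower, with smaller differences in whole replicate 1. The count was 1 without whole replicate 2, when Aldoa, Pgk1 and Slc2a1 lost their calls (Slc2a1 also without the anterior library), and 14 without whole replicate 1. Of 9 p53 targets 5 were lower, a median of -0.52. Ccng1, a cyclin-like p53 target, was at 148, 112 and 80.3 CPM against 96.4, 72.4 and 33.0 CPM (log2 -0.89 ± 0.11, adjusted p = 0.000117), and Cdkn1a, which encodes the cell cycle inhibitor p21, at 73.8, 54.8 and 38.8 CPM against 54.4, 25.4 and 11.9 CPM (log2 -1.04 ± 0.18, adjusted p = 0.00197). Phlda3 (-0.70) and Zmat3 (-0.52) were lower as well. The p53 count was 2 without whole replicate 2, when Cdkn1a, Phlda3 and Zmat3 lost their calls.

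Asns, which encodes asparagine synthetase, was at 89.8, 95.2 and 144 CPM in Somite A and at 56.9, 45.6 and 49.7 CPM in Somite B (log2 -1.13 ± 0.13, adjusted p = 6.64e-05). Phgdh, the first enzyme of serine synthesis, went from 78.1, 75.9 and 124 CPM to 46.9, 44.8 and 59.9 CPM (log2 -0.89 ± 0.08, adjusted p = 5.8e-06). Psat1 (-0.80), Shmt2 (-0.55) and Atf5 (-1.01) were lower (adjusted p = 0.000321, 0.000676 and 2.95e-05), whereas Atf4 (-0.08) was not called. These genes are of no planned list and were chosen after their values had been seen, so they give no separate support.

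Of 29 cell cycle genes 2 were higher (Myc and Plk1) and 6 lower, a median of 0.04. Mycn was at 27.7, 38.3 and 15.3 CPM in Somite A and at 11.5, 16.4 and 5.33 CPM in Somite B (log2 -1.37 ± 0.11, adjusted p = 3.47e-06), while Myc was at 23.0, 22.1 and 6.40 CPM against 35.8, 26.1 and 9.11 CPM (log2 0.53 ± 0.10, adjusted p = 0.00601), a call of Myc that did not hold without whole replicate 1. Ccnd1, a G1 cyclin gene, was lower (-0.64). Plk1, a mitotic kinase gene, was barely called (0.27 ± 0.08, adjusted p = 0.0467) and lost the call without whole replicate 2 and among G1 cells. Immediate early genes gave 2 higher of 13 (Atf3 and Jund) and none lower, and Jund (0.21) lost its call without whole replicate 2 and without the anterior library. Ribosomal protein genes were slightly lower, 43 of 76 with a median of -0.17; this count fell to 13 without normalization factors, to 1 without whole replicate 2 and to 1 without the anterior library.

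**Figure D5:**
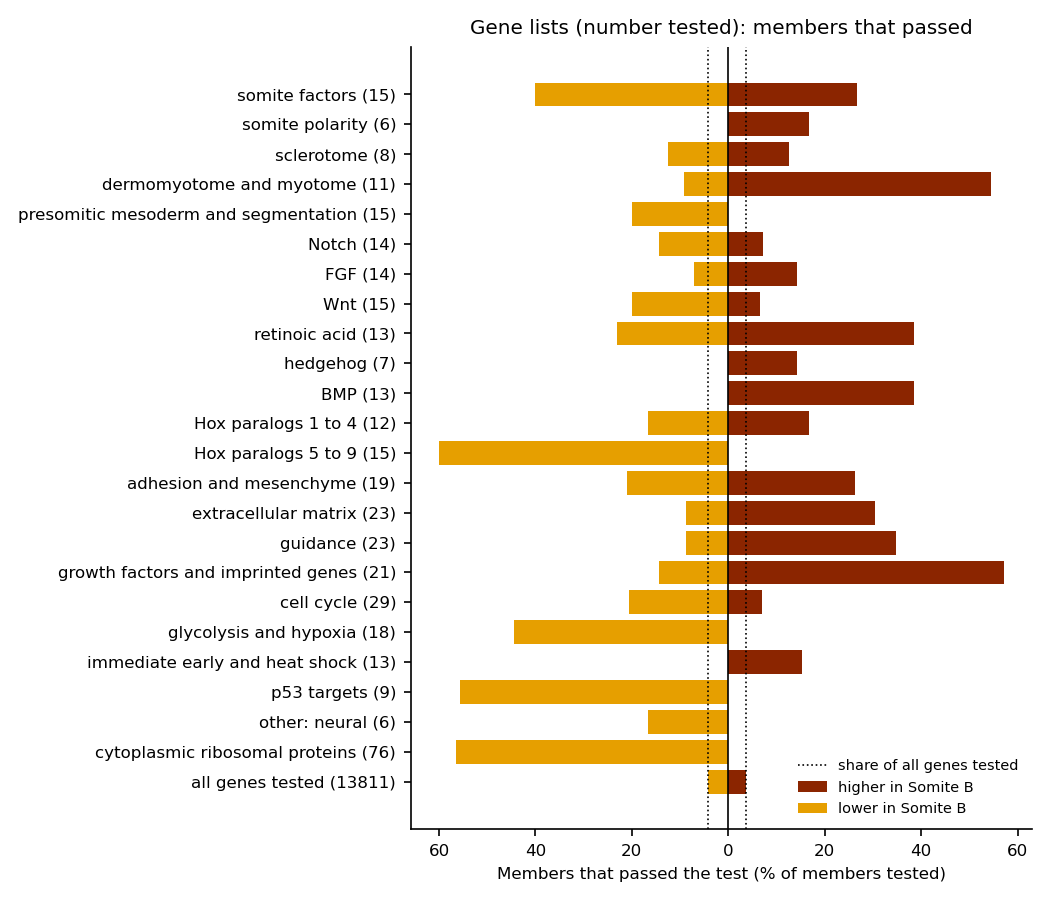
Share of the tested members of each gene list with at least 6 of them (number tested in brackets) that passed the test, in % (x axis), higher in Somite B to the right (dark red) and lower to the left (orange); dotted lines give the shares over all genes tested, 3.67% higher and 4.12% lower. The longest bars among the lists shown are those of Hox paralogs 5 to 9, ribosomal protein genes and p53 targets on the lower side, and of growth factors and imprinted genes and dermomyotome and myotome on the higher side.

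Markers of other cell types were scarce and touched a few of these genes. Summed levels ran from 0.328 to 2.00 CPM in Somite A and 0.564 to 2.99 CPM in Somite B for 10 genes of lateral plate and heart, of which 2 were at 0 in all sums, from 10.8 to 31.8 and 6.46 to 25.4 CPM for 10 neural genes, and from 15.04 to 25.5 and 8.13 to 13.4 CPM for 6 genes of intermediate mesoderm, 2 of them at 0. Neural crest genes summed to 57.1 to 92.6 CPM in Somite A and to 29.4 to 58.2 CPM in Somite B; of these 7 genes 3 were at 0, and most of the sum was Ets1, which was lower in Somite B (-0.85) except without whole replicate 2. Lhx1 (-1.57) and Wt1 (-0.76) of intermediate mesoderm were lower, Lhx1 not without the anterior library, and Stmn2, a neural gene at 0.842 to 3.50 CPM in Somite A, was lower as well (-1.33), though not without whole replicate 2. Sums were 2.13 to 2.996 and 2.24 to 3.08 CPM for 9 genes of notochord and endoderm, 3 of them at 0, and 2.58 to 4.49 and 2.15 to 3.12 CPM for 8 genes of pluripotent and germ cells, 1 of them at 0.

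Endothelial genes stood out. Their 7 genes summed to 3.24 to 4.66 CPM in Somite A and to 4.48 to 20.4 CPM in Somite B, and 9 of the 2401 Somite B cells (7 in the anterior part, 2 in whole replicate 1) but 0 of the 3698 Somite A cells held UMIs of at least 3 of them. The single Somite B cell of the posterior part also did. Those 9 cells held 90.5% of the Kdr and 99.3% of the Cldn5 UMIs of Somite B, but 51.7% of the Etv2 and 36.1% of the Pecam1 UMIs. These 4 genes are among the 7 that picked the cells, so high shares follow from the choice, as does the loss of Kdr below. Of genes not used to pick them, the cells held 40.6% of the Igf1 and 20.3% of the Sparc UMIs. They held 0.316% of those of Timp3 and none of the 2230 Fap or 3855 Dmrt2 UMIs. Kdr, which encodes a receptor for vascular endothelial growth factor, had passed (log2 3.65 ± 0.51, adjusted p = 0.000411) and was no longer abundant enough to be tested without these cells. Sparc was still called then (1.49), and Igf1 (2.78 with them) was not tested. Without these cells, a choice made after seeing the data, 1070 genes were called.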

How the data were processed

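Single-cell RNA-seq (10x Genomics, V3 and V3.1 chips) was made from pooled, dissociated stembryos. The authors aligned reads to mm10 with Cell Ranger 6.0 and a modified annotation, counted UMIs, filtered cells on UMI count, detected genes and mitochondrial share with Seurat 4.0.2 and deposited raw UMI counts of 25595 genes in 26968 cells. The deposited annotation of cells gives the library, the number of UMIs (a count), the percent of mitochondrial UMIs, the cell cycle scores and phases, which the authors computed with Seurat, and the cluster name. Clusters were drawn on the merged libraries after scaling for mitochondrial share and cell cycle score. Doublets were removed by the authors through the limit on UMIs alone, and no doublet caller was run here. Whether counting used strand is not given in the sources used here.

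Counts were summed per library and cluster (6 sums, 1203239 to 26068837 UMIs), filtered with filterByExpr, scaled by TMM and fitted with edgeR 4.0.16 (R 4.3.3) with library and cluster as terms, on 13811 genes, with 2 residual degrees of freedom. The fit added 11.5 prior degrees of freedom, taken from the spread of other genes. Both sums of a library come from 1 cell suspension, which is what pairs them. The agreement between libraries is a separate matter. Across genes, which are not independent, the per-gene differences correlated by 0.21 between whole replicates 1 and 2. The values were 0.42 between whole replicate 1 and the anterior part and 0.23 between whole replicate 2 and the anterior part. P-values were adjusted over all genes tested (Benjamini-Hochberg), and calls are at an adjusted p under 0.05. Scripts were tested on simulated counts. The 3 libraries are 3 batches of the annotation, so that the values per library are also the values within batches. Shares of cells were taken after thinning each cell to 5000 UMIs, with exact (Clopper-Pearson) 95% intervals. A level of 0 is given with the limit that 3 counts would make. Intervals and limits cover counting error only.

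Genes named are the 15 largest differences in each direction among genes called, with the same sign in all 3 libraries and at least 50 CPM on the higher side, all tested members of the lists of somite factors, polarity, sclerotome and dermomyotome, and up to 4 called members a direction of each other list. The remaining Hox genes, and members named as not called, were added after their values were seen. A few genes that this rule picks are not reported here. The members, lists and comparison were chosen with earlier results of these data known. Alternatives were other normalizations, no filter, DESeq2 1.42.0, no block, each library left out, the posterior library added or summed in, and other choices of cells. The 96 h libraries were used for cell counts only. Positions are GENCODE M21 models on mm10.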

Additional observations from a re-analysis of the deposited data

Results flagged for a closer look

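In 5 named genes, both whole libraries moved one way and the anterior library the other; these differences between libraries were not tested, since there is 1 anterior library. Uncx was higher in Somite B in the whole libraries (log2 0.32 and 0.17) and lower in the anterior part (-0.73), and Hoxc4 likewise (0.70 and 0.10, against -0.54). Sox9 was lower in the whole libraries (-1.69 and -0.70) and higher in the anterior part (0.42), at 2.63 to 8.59 CPM. Actc1 was lower in the whole libraries (-0.07 and -2.23) and higher in the anterior part (0.41). Tbx18 was lower in whole replicate 1 (-2.27), had no UMI in Somite B of whole replicate 2, and was slightly higher in the anterior part (0.10). None of these 5 genes passed the test over all 3 libraries.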

How the results depend on the processing

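Wherever it could be tested, the direction of a called gene that the naming rule picked held, apart from Ebf2 (log2 0.17) and Plk1 (-0.028) among cells in phase G1; of the 120, 105 could be tested among these cells, 110 with the posterior library added, 115 without the anterior library and 116 with DESeq2. The number of genes called moved more. Against 507 higher and 569 lower, fitting the libraries without the replicate block gave 15 and 5, with Timp3, Fap, Sema3a, Ifitm1, Prrx2, Pax7, En1 and Dhrs3 still called among 120 named genes. DESeq2 gave 232 and 247, and 79 of the 116 named genes with an adjusted p stayed called. Among those not called by DESeq2 were Hoxb9, Hoxa7, Hoxc8, Hoxc9, Hoxb5os, Foxd2os, Cxcl12, Myf5, Myc, Nrp1, Aldoa and Pgk1. Cells in phase G1 alone gave 244 and 285. Without normalization factors 759 were higher and 320 lower, with a shift of the median of all genes by 0.07, and 113 named genes stayed called. Leaving out 1 library gave 281 to 711 higher and 200 to 1020 lower: 281 and 220 without the anterior library, 305 and 200 without whole replicate 2, which holds the fewest cells, and 711 and 1020 without whole replicate 1. Of the named genes 91, 87 and 110 stayed called in these fits. Leaving out whole replicate 1 raised the counts of lower genes from 3 to 6 for Wnt, from 3 to 5 for presomitic mesoderm, from 2 to 4 for Notch and from 2 to 5 for guidance, and those of higher genes from 7 to 11 for extracellular matrix and from 2 to 5 for the cell cycle. Without whole replicate 2, lower somite factors went from 6 to 2, higher adhesion genes from 5 to 2 and lower cell cycle genes from 6 to 3. Without the anterior library, higher adhesion genes went from 5 to 1, higher retinoic acid genes from 5 to 2, higher Wnt genes from 1 to 3 and lower presomitic genes from 3 to 1. The causes were not tested, beyond the smaller number of cells or libraries that these fits use. DESeq2 size factors, no filter on low counts, cells with at most 1.5 times the mean UMIs, both parts summed to 1 pool, the posterior library as 1 more block and the removal of cells with endothelial genes left both counts within 1.5 times; that added block rests on 1 Somite B cell. Without cells with endothelial genes Hoxd8 was not called. Among G1 cells the share of Somite B was 25.8% in whole replicate 1 and 45.1% in the anterior part, against 30.6 and 48.3% of all somite cells. Depth limits the genes below about 5 CPM, above all in whole replicate 2, where 3 counts in the Somite B sum are 2.24 CPM.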
